A study of Homo sapiens with 15 samples.

Results

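The 15 A549 xenograft tumours of this series were sorted by how much of their sequenced RNA came from the mouse host. The mouse share of a library is the sum of its counts on mouse genes divided by all of its counts. A tumour with a mouse share of 20% or more was called host-rich, and a tumour under 20% was called host-poor. By this rule 8 of the 15 tumours were host-rich and 7 were host-poor, and the human genes and the mouse genes of these tumours were then compared separately, each scaled within its species.

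A549 is an established human lung adenocarcinoma cell line, and a xenograft is a tumour that such cells form in an animal of another species. The cells were grown under the skin of BALB/c nude mice, which lack a normal thymus and therefore mature T cells. All 3 study groups share this line, this host strain and this site, and each group holds 5 tumours. Mice of the no-stress group were not restrained. Mice of the stress group were restrained, and the labels give 7 days before transplantation. Mice of the post-stress group were restrained as well, and the labels give 12 days after transplantation. Whether 7 and 12 are lengths of restraint or the days on which it began is not clear from the labels. The age and sex of the mice were not used here. Each tumour gave 1 library of total RNA, and separate animals are implied by the numbers of mice but pooling is not stated. The series title names macrophage polarization and lung cancer progression under chronic stress, while the division by host RNA is not a contrast of the study.

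A xenograft is built from cells of both species. The human cells are the transplanted cancer cells, while blood vessels, fibroblasts, macrophages and other supporting cells come from the mouse. Host cells supply oxygen, matrix and growth factors to the cancer cells, and cancer cells short of oxygen switch on a hypoxia response that includes genes of glycolysis and of vessel growth. Reads of conserved sequence can be counted on the gene of the wrong species.

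The sides were chosen by the mouse share, so the following values describe the choice and were not tested. In the no-stress group the mouse share was 30.2%, 20.5%, 15.6%, 17.6% and 29% in replicates 1 to 5. In the stress group it was 20.8%, 18.6%, 19.4%, 21.8% and 24.6%. In the post-stress group it was 12.4%, 15.4%, 14.6%, 23.0% and 22.7%. The host-rich tumours were therefore no-stress replicates 1, 2 and 5, stress replicates 1, 4 and 5, and post-stress replicates 4 and 5. No gap separated the sides, since the tumour just under the threshold (stress replicate 3) had 19.4% and the tumour just over it (no-stress replicate 2) had 20.5%. Because the study groups fell unequally on the sides, the study group was a covariate in the fits reported.

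**Figure D1:**
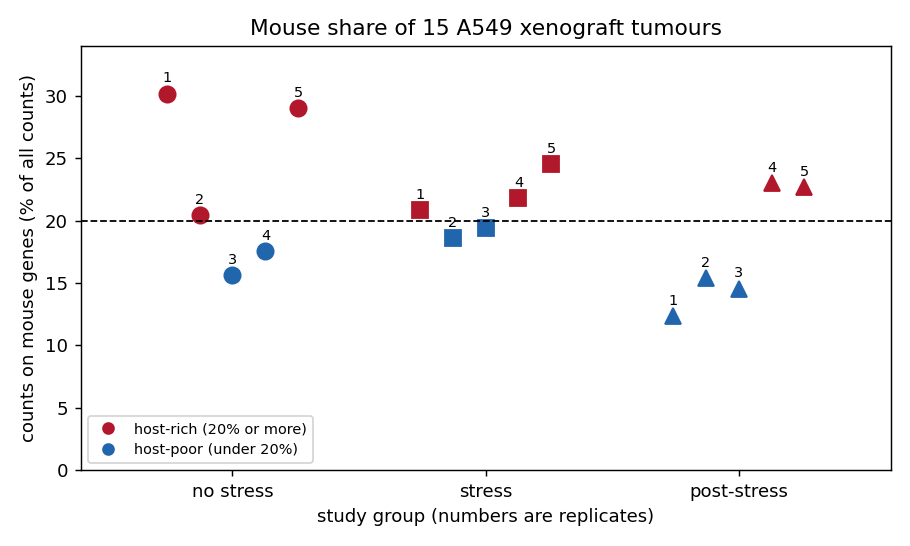
The vertical axis gives the counts on mouse genes as a percent of all counts, and the horizontal axis the study group, with 1 point for each of the 15 tumours and its replicate number. The dashed line is the threshold of 20%, with 8 tumours on or above it and 7 below it, and each study group has tumours on both sides.

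Total counts per library ranged from 16729091 to 19680449 and overlapped between the sides. Human counts were 12877165 to 14648460 in host-rich and 14162672 to 15892705 in host-poor tumours, and mouse counts were 3550707 to 5937694 and 2119772 to 3578892. The mean mouse count of the host-rich tumours was 1.52 times that of the host-poor tumours, and the mean human count 0.924 times. Mouse genes were thus measured at less depth than human genes, and at the least depth in host-poor tumours. At equal depth, 23094 to 24431 human genes were detected in host-rich tumours (median 23333) and 22433 to 23784 in host-poor tumours (median 22876). The epithelial keratins KRT8 and KRT18 had medians of 3782 and 1366 CPM over the 15 libraries, where CPM are counts scaled to the library total within the species. EPCAM, an epithelial adhesion molecule, had a median of 13.4 CPM, while KRT19, another epithelial keratin, had only 1 to 12 counts per library.

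No human gene passed the test between host-rich and host-poor tumours. The first question was whether the cancer cells of host-rich tumours express their genes in other proportions than those of host-poor tumours. Of 15435 human genes tested with edgeR's quasi-likelihood test, 0 were higher (0%) and 0 were lower (0%) at a Benjamini-Hochberg adjusted p under 0.05. The smallest adjusted p was 0.609. DESeq2's Wald test and limma-voom on the same genes also called 0, with 1250 and 1217 genes at an unadjusted p under 0.05. In the edgeR fit 1219 genes (7.90%) had an unadjusted p under 0.05, of which 683 (4.43%) were higher and 536 (3.47%) lower in host-rich tumours. The median 95% confidence interval of a gene reached 0.25 to either side on the log2 scale, a factor of 1.19. Smaller differences were not detectable with these tumours for a typical gene. The interval holds for 1 gene and is not adjusted over the 15435 genes tested, so that larger differences could also go uncalled. Only 93 genes (0.603%) had an estimated difference of at least 1 on the log2 scale, and none of them was called. Differences are given as log2 fold changes, host-rich minus host-poor, from the fit with study group. The p-values measure the spread between these tumours.

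**Figure D2:**
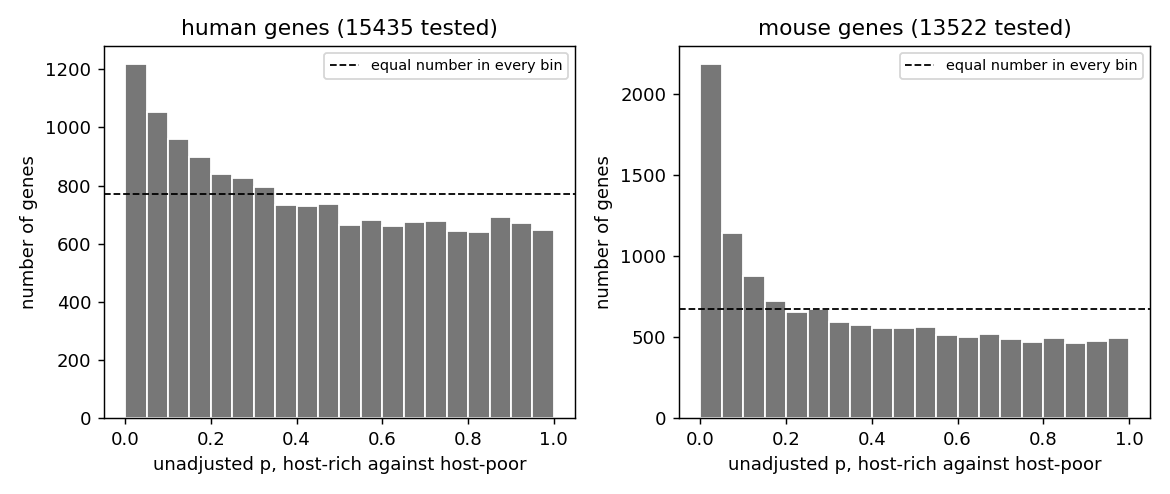
Number of genes (vertical axis) by unadjusted p (horizontal axis, bins of equal width) for 15435 human and 13522 mouse genes, with a dashed line at an equal number per bin. The lowest bin holds 1219 human and 2187 mouse genes and is the tallest in both panels.

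The human genes of smallest p were spread over unrelated functions. Each of the following genes had an adjusted p of 0.609 and did not pass the test. COL7A1, on chromosome 3 (48564073 to 48595267, GRCh38), encodes the collagen of the anchoring fibrils that epithelial cells lay down at the basement membrane. It had 400.5, 499 and 590 CPM (lowest, median, highest) in host-rich tumours against 278, 348 and 456 CPM in host-poor tumours. Of the 8 host-rich tumours, 6 lay above every host-poor tumour, and the remaining ones were stress replicate 4 at 400.5 CPM and no-stress replicate 2 at 438 CPM. The log2 fold change was 0.51 (SE 0.11, unadjusted p = 2.97e-04). Within the no-stress, stress and post-stress groups it was 0.61, 0.48 and 0.46, so that the direction was shared by the 3 groups.

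GOLGA7B, a protein that helps palmitoylating enzymes, had 17.3, 23.7 and 30.2 CPM against 12.0, 19.3 and 20.9 CPM, a log2 fold change of 0.42 (SE 0.09). CELF2, an RNA-binding regulator of splicing on chromosome 10 (10798397 to 11336675), had 5.70, 8.91 and 15.5 CPM against 3.02, 4.59 and 7.23 CPM, a log2 fold change of 0.84 (SE 0.20). The highest CELF2 values were those of no-stress replicates 5 and 1, the tumours with the largest mouse shares, and only 2 host-rich tumours, post-stress replicate 5 and stress replicate 1, reached into the host-poor range. Within the groups its log2 fold change was 1.18 (no stress), 0.24 (stress) and 1.14 (post-stress). The DNA helicase DDX11 (log2 fold change 0.27, SE 0.06) and the actin-binding protein SHROOM1 (0.35, SE 0.08) complete the 5 higher genes of smallest p. These were taken among genes with a symbol and a mean log2 CPM of at least 1. The pseudogene ENSG00000232499, which has no symbol, had a smaller p than SHROOM1 and CELF2 (log2 fold change 0.58, SE 0.13, unadjusted p = 4.52e-04).

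The 5 lower genes of smallest p, with a symbol and a mean log2 CPM of at least 1, had differences of 0.30 to 0.39 in size on the log2 scale. ARHGAP18, a GTPase-activating protein, had 51.5, 59.3 and 68.3 CPM in host-rich tumours against 66.5, 76.7 and 83.5 CPM in host-poor tumours. The sides overlapped by a narrow band of 66.5 to 68.3 CPM. Its log2 fold change was -0.30 (SE 0.07, unadjusted p = 4.21e-04), and it was -0.35, -0.28 and -0.24 within the no-stress, stress and post-stress groups. SLC27A2, which activates very long-chain fatty acids, had 23.8, 29.9 and 40.2 CPM against 32.2, 39.5 and 49.3 CPM (log2 fold change -0.39, SE 0.10). HSPA13 (-0.31), a chaperone of the Hsp70 family, EPB41L5 (-0.34), a cytoskeletal adaptor of epithelial cells, and C3orf38 (-0.30) were the others.

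Non-overlapping human genes were as rare. All 8 host-rich tumours lay above all 7 host-poor tumours for 1 human gene (0.00648%), SCAF4, a regulator of transcript ends, at 25.5 to 33.5 against 20.03 to 25.3 CPM. All 8 lay below all 7 for 1 gene (0.00648%), the ubiquitin protease USP3, at 38.5 to 43.28 against 43.34 to 49.0 CPM. These genes were chosen after their values were seen, and their gaps between the sides were small beside the spread within a side.

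**Figure D3:**
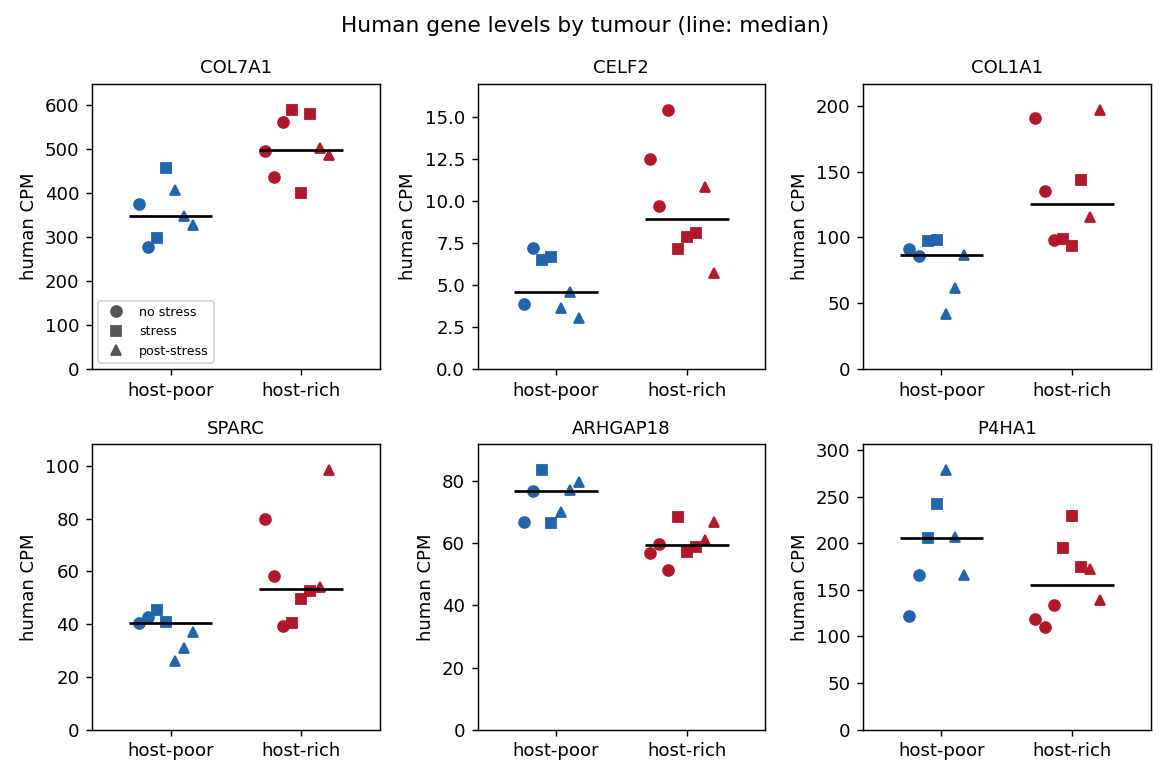
CPM of 6 human genes (vertical axes, starting at 0) in host-poor (blue) and host-rich (red) tumours, with 1 point per tumour, its shape giving the study group and the line the median of the side. The sides overlap in all 6 panels, and CELF2, COL1A1 and SPARC reach their highest values in host-rich no-stress or post-stress tumours.

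Hypoxia genes lay slightly lower in host-rich tumours, but none passed the test. Of the 20 tested genes of the hypoxia response list, 19 (95%) had a negative log2 fold change, against 49.4% of all tested human genes, and their median was -0.27, against 0.0024 over all genes. At an unadjusted p under 0.05, 6 were lower and none higher. P4HA1, a collagen prolyl hydroxylase, had 110, 155 and 229 CPM in host-rich and 122, 205 and 278 CPM in host-poor tumours (log2 fold change -0.30, SE 0.11, unadjusted p = 0.0183). The ranges overlapped over most of their width. BNIP3, a mitophagy receptor, was similar (-0.33, SE 0.13), as were the histone demethylase KDM3A (-0.27, SE 0.10) and INSIG2 (-0.23, SE 0.08), a brake on sterol synthesis.

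The classical hypoxia markers within the named genes showed smaller or less certain differences. The carbonic anhydrase CA9 had 28.7, 61.2 and 104 CPM in host-rich against 30.8, 92.4 and 112 CPM in host-poor tumours (-0.29, SE 0.35). VEGFA, the main vessel growth factor, had 144, 280 and 420 CPM against 158, 289 and 461 CPM (-0.04, SE 0.15). Neither difference exceeded its error. Over the 3 groups the median of the hypoxia list was -0.09 (no stress), -0.03 (stress) and -0.62 (post-stress), and the post-stress group, with the lowest median, had 2 host-rich and 3 host-poor tumours. The same sign was found in all 30 alternative fits, which reuse the same tumours.

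Metabolic gene lists leaned the same way, by little. Of 17 glycolysis genes, 14 (82.4%) had a negative log2 fold change, against 49.4% of all tested human genes. Their median was -0.10 (0.07 within the stress group). The most negative of them, LDHA (-0.47), had only 0.399 to 2.03 CPM. PFKFB3, which makes the activator of phosphofructokinase, had 66.4, 119 and 207 CPM against 146, 157 and 218 CPM (-0.42, SE 0.16, unadjusted p = 0.0164). The ranges overlapped between 146 and 207 CPM. PGK1, an ATP-forming enzyme of glycolysis, had 1073, 1296 and 1660 CPM against 1146, 1632 and 1822 CPM (-0.22, SE 0.08). Nuclear genes of oxidative phosphorylation had a median of -0.12, with 21 of 22 below 0, and ribosomal protein genes a median of -0.14, with 23 of 24 below 0. Both medians turned positive within the stress group, at 0.07 and 0.23. The most negative oxidative phosphorylation gene, UQCRC2 (-1.05), had 1.33 to 3.12 CPM in host-rich and 1.47 to 20.6 CPM in host-poor tumours. Of 23 genes of cholesterol synthesis 19 lay below 0, with a median of -0.07, and none had an unadjusted p under 0.05.

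NRF2 drives genes of detoxification and is constitutively active in A549 cells, in which its inhibitor KEAP1 is mutated. Of 20 targets 16 (80%) lay below 0, against 49.4% of all tested human genes, with a median of -0.10. At an unadjusted p under 0.05, 3 were lower and 1 higher. NQO1, a quinone reductase, had 1386, 1720 and 2090 CPM in host-rich against 1724, 1976 and 2777 CPM in host-poor tumours (-0.28, SE 0.10). The aldo-keto reductase AKR1B10 had 2965, 3637 and 4415 CPM against 3596, 4417 and 5485 CPM (-0.29, SE 0.10), and the thioredoxin reductase TXNRD1 a log2 fold change of -0.22 (SE 0.08). SRXN1, which repairs oxidized peroxiredoxins, went the other way, with 21.96, 27.9 and 43.3 CPM against 14.7, 19.3 and 33.5 CPM (0.48, SE 0.17). The members of this list thus differed in sign.

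Genes of contact with the matrix did not pass the test either. Of 18 integrin and matrix contact genes 7 (38.9%) had a negative log2 fold change, against 49.4% of all tested genes, with a median of 0.10, and 3 were higher at an unadjusted p under 0.05. ITGA2, a collagen receptor subunit, had 26.7, 38.2 and 67.9 CPM against 23.2, 31.1 and 42.0 CPM (0.37, SE 0.13). Its highest value was that of post-stress replicate 4. The log2 fold change was 0.21 (SE 0.09) for the focal adhesion adaptor PXN, 0.39 (SE 0.17) for the integrin subunit ITGB3 and 0.29 (SE 0.14) for the laminin receptor subunit ITGA6.

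The list of epithelial-mesenchymal transition had a median of 0.15 (-0.10 within the stress group), with 13 of 19 above 0. Thus 31.6% lay below 0, against 49.4% of all tested human genes. At an unadjusted p under 0.05, 3 genes were higher and 1 lower. The higher ones included the transcription factor ZEB2 (0.48, SE 0.19) and the membrane-bound matrix protease MMP14 (0.45, SE 0.19), and the lower one was the matrix signalling protein CCN1 (-0.43, SE 0.19). MMP14 had 10.4, 14.2 and 21.03 CPM in host-rich against 5.73, 11.7 and 13.5 CPM in host-poor tumours, so that the sides overlapped. VIM, the mesenchymal intermediate filament, and CDH1, the epithelial cadherin, had log2 fold changes of -0.04 (SE 0.10) and 0.06 (SE 0.14). Neither of these 2 defining markers differed beyond its error.

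Interferon response genes had a median of 0.24, with 16 of 18 above 0, but the members varied widely within a side. Below 0 lay 11.1% of this list, against 49.4% of all tested human genes. ISG15, an interferon-induced ubiquitin-like protein, had 127, 221 and 804 CPM in host-rich against 78.4, 214 and 704 CPM in host-poor tumours (0.21, SE 0.34). The median of this list was 0.58 and 0.42 within the no-stress and post-stress groups and -0.21 within the stress group. Of 19 p53 targets 15 lay above 0, with a median of 0.11, and 3 had an unadjusted p under 0.05: the repair factor DDB2 (0.17, SE 0.07), the apoptosis activator BBC3 (0.22, SE 0.10) and PHLDA3 (0.27, SE 0.12), an inhibitor of AKT. For DDB2 the host-rich tumours had 35.6, 42.5 and 50.1 CPM and the host-poor tumours 34.3, 36.3 and 41.2 CPM.

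No gene of cell division or of signals to macrophages passed the test, and none of these lists had a member at an unadjusted p under 0.05. The proliferation marker MKI67 had 99.6, 152 and 241 CPM against 104, 126 and 187 CPM (0.19, SE 0.12, unadjusted p = 0.129). The list of S phase had a median of 0.04, with 21 of 24 genes above 0, and the list of mitosis a median of 0.06, with 17 of 24 above 0. Below 0 lay 12.5% and 29.2% of these lists, against 49.4% of all tested human genes. Both medians were below 0 (-0.0127 for S phase and -0.0189 for mitosis) when no-stress replicate 1 was left out. No interval was computed for a list median. CSF1, the growth factor of macrophages, had 78.0, 115 and 174 CPM against 67.9, 132 and 194 CPM (-0.26, SE 0.16). CCL2, which attracts monocytes, had 5.13, 7.91 and 18.9 CPM against 4.90, 8.42 and 9.76 CPM (0.17, SE 0.22), and CXCL8, which attracts neutrophils, a log2 fold change of -0.06 (SE 0.28). The sides overlapped for each of these ligands.

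**Figure D4:**
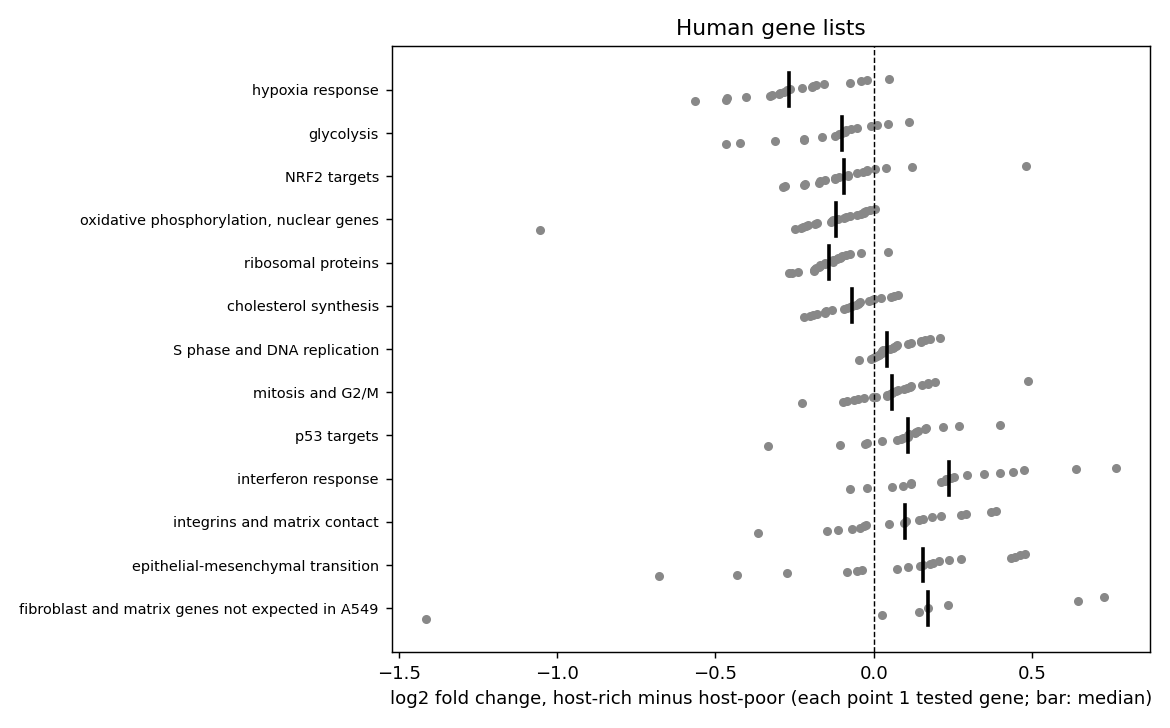
Log2 fold change, host-rich minus host-poor (horizontal axis), of each tested gene of 13 human lists (vertical axis), with 1 grey point per gene and a black bar at the list median. The hypoxia, oxidative phosphorylation and ribosomal lists lie almost wholly left of 0 and the interferon list mostly right of it, and no point is a gene that passed the test.

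Some human rows that A549 cells are not known to use had higher counts in host-rich tumours. COL1A1, the main chain of fibroblast collagen, had 93.8, 126 and 197 CPM of human counts in host-rich against 41.6, 87.0 and 97.9 CPM in host-poor tumours. Its log2 fold change was 0.73 (SE 0.23, unadjusted p = 0.00689). All but 1 of the host-rich tumours, stress replicate 4, lay above every host-poor tumour. SPARC, a secreted protein that binds collagen, had 39.2, 53.2 and 98.4 CPM against 26.2, 40.6 and 45.3 CPM (0.64, SE 0.20). Within the groups the log2 fold change of COL1A1 was 0.68, 0.21 and 1.31 and that of SPARC 0.51, 0.15 and 1.28 (no stress, stress, post-stress).

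The other fibroblast genes varied more. Of the 12 genes of fibroblasts and matrix 7 were tested, with a median of 0.17 and 6 of 7 above 0. Thus 14.3% lay below 0, against 49.4% of all tested human genes. At an unadjusted p under 0.05, 2 were higher and 1 lower. The lower one was PDGFRB, a receptor of pericytes and fibroblasts, at -1.41 (SE 0.50). It had 0.632 to 1.73 CPM in host-rich and 1.11 to 16.4 CPM in host-poor tumours, where post-stress replicate 2 alone held 16.4 CPM. Without that tumour the log2 fold change of PDGFRB was -0.82 (edgeR, unadjusted p = 0.00659). It was negative in all 15 fits with 1 tumour left out. DCN, a matrix proteoglycan, had 1.05, 13.1 and 48.3 CPM against 5.20, 17.6 and 25.2 CPM (0.03, SE 0.53). Defining fibroblast genes were at or near 0 on the human side: THY1 had 0 counts in all 15 libraries, COL1A2 in 14, POSTN in 13 and COL3A1 in 9, with at most 6 counts of COL3A1. The summed level of the 12 genes was 495.6 to 817 CPM in host-rich and 297 to 666 CPM in host-poor tumours.

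Leukocyte and vessel genes on the human side were mostly close to 0. The 16 leukocyte genes summed to 122 to 1388 CPM in host-rich and 103 to 502 CPM in host-poor tumours, and 10 of them had at most 10 counts in any library. The sum was carried by S100A8 and S100A9, calcium-binding proteins of neutrophils and of stressed epithelium, with up to 620 and 756 CPM in a library, and S100A8 had a log2 fold change of 0.50 (SE 0.54). For the 5 tested the median was 0.46, but -0.15 without no-stress replicates 1 and 5. PTPRC, the common leukocyte antigen, had 0 counts in 11 libraries and at most 2. CD74, the invariant chain of MHC class II, had 1.116, 1.71 and 5.43 CPM in host-rich against 0.281, 1.16 and 3.30 CPM in host-poor tumours (0.93, SE 0.44). The 12 vessel genes summed to 47.7 to 147 CPM in host-rich and 72.3 to 356.5 CPM in host-poor tumours, with up to 342 CPM from RGS5 alone, and 3 were tested: the pericyte gene RGS5 (-0.81, SE 0.42), the endothelial adhesion molecule PECAM1 (-0.39, SE 0.21) and the smooth muscle actin ACTA2 (0.54, SE 0.28). PECAM1 had 7.27, 12.3 and 19.7 CPM against 11.7, 15.5 and 24.5 CPM. None of these genes passed the test.

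Of the 7 lists of genes not expected in A549, that of epidermis genes had the highest summed median, with 479, 1130 and 1548 CPM in host-rich against 392, 602 and 1241 CPM in host-poor tumours. All 5 tested members lay above 0, against 7808 of all 15435 tested human genes. Their median of 0.59 kept its sign in all 30 alternative fits. The basal keratins KRT14 and KRT5 had log2 fold changes of 0.59 (SE 0.42) and 0.61 (SE 0.30). KRT14 had 311, 752 and 1054 CPM against 218, 338 and 960 CPM, with overlap over most of the range, and no member passed the test.

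Together the 7 lists of genes not expected in A549 took 0.147%, 0.224% and 0.381% of human counts in host-rich tumours (lowest, median, highest) against 0.106%, 0.166% and 0.232% in host-poor tumours. The mean difference within study groups was 0.0612 percentage points (exact two-sided permutation within groups, p = 0.104, adjusted p = 0.191 over 4 library values). With a split at 22% it was 0.102 percentage points (p = 0.006 in the same exact permutation test, unadjusted). How many of these counts were reads of mouse origin was not tested. The share of mitochondrial-encoded genes, a sign of RNA and cell quality, was 3.82% on average in host-rich and 3.97% in host-poor tumours (p = 0.648 in the same exact permutation test). The 50 highest human genes took 15.8% and 16.8% of human counts (exact permutation p = 0.078, adjusted p = 0.191), and the 50 highest mouse genes 15.8% and 16.6% of mouse counts (p = 0.143, adjusted p = 0.191). None of the 4 library values differed at an adjusted p under 0.05, with 0.001 the smallest p that the 1000 relabellings allow.

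With the mouse share as a continuous measure in place of the 2 sides, 5 human genes passed the test. All 5 were higher with a larger share. They included CELF2, RBM39P1, FAM224B and ENSG00000232499, which were chosen after their values were seen. The change per SD of the logit of the share was 0.55 on the log2 scale for CELF2 (SE 0.09, edgeR adjusted p = 0.0310) and 0.65 for RBM39P1 (SE 0.10, adjusted p = 0.0239). RBM39P1 had 1.81, 3.76 and 5.13 CPM in host-rich against 0.829, 1.80 and 3.03 CPM in host-poor tumours, with a log2 fold change of 0.86 (SE 0.26) between the sides. RBM39P1 and ENSG00000232499 are processed pseudogenes, whose reads can come from their parent genes, and FAM224B is a long non-coding RNA. The upper end of the share was held by no-stress replicates 1 and 5.

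On the mouse side 49 genes differed in their proportion of mouse counts, nearly all lower in the host-rich tumours. The divisor of this proportion is the mouse total, which also chose the sides. A gene with equal raw counts on both sides therefore comes out lower in host-rich tumours. Over the 46 lower genes the ratio of mean raw counts, host-rich to host-poor, had a median of 0.963. The question here was whether the host RNA of host-rich tumours has another makeup, or is more of the same. Of 13522 mouse genes tested 3 were higher (0.0222%) and 46 lower (0.34%) at an edgeR adjusted p under 0.05, and the adjusted p of the called genes lay between 0.0411 and 0.0488, close to the threshold. At an unadjusted p under 0.05, 1007 genes (7.45%) were higher and 1180 (8.73%) lower. All 8 host-rich tumours lay above all 7 host-poor tumours for 4 mouse genes (0.0296%) and below them for 65 (0.481%). In bulk tissue, fewer cells of a type and less RNA per cell cannot be told apart. The mouse identifiers had no symbols in the references used here, so that the mouse genes could not be assigned to macrophages, vessels or other host cells.

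The count of 49 depended on single tumours. Leaving out no-stress replicate 1, 4 or 5, stress replicate 5, or any 1 of the 5 post-stress tumours gave 0 calls. Leaving out no-stress replicate 3 gave 2, stress replicate 2 gave 5 and stress replicate 4 gave 45. The count was higher, at 114, when stress replicate 3 was left out, at 228 for no-stress replicate 2 and at 588 for stress replicate 1. Within single groups the count was 0 (no stress), 0 (stress) and 187 (post-stress, 12 of them among the 49). DESeq2's Wald test called 641 and limma-voom 123 of the same genes, both with most genes lower.

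The higher genes were few and large. ENSMUSG00000033453 had 13.5, 38.3 and 65.2 CPM of mouse counts in host-rich against 4.08, 16.0 and 19.9 CPM in host-poor tumours. Of the 8 host-rich tumours, 7 lay above every host-poor tumour. The gene rose by a log2 fold change of 1.55 (SE 0.30, adjusted p = 0.0459), and by 1.43, 1.04 and 2.196 within the no-stress, stress and post-stress groups. ENSMUSG00000019866 had 17.9, 30.3 and 58.5 CPM against 6.89, 11.1 and 30.0 CPM (1.20, SE 0.21, adjusted p = 0.0411), and its sides overlapped through 1 host-poor no-stress tumour at 30.0 CPM. Left out 1 tumour at a time, the log2 fold changes of both genes stayed between 1.39 and 1.71 and between 1.08 and 1.39. However, ENSMUSG00000033453 did not pass the test in 13 of these 15 fits, and ENSMUSG00000019866 in 10.

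Among called genes with a mean log2 CPM of at least 3, the 2 largest decreases separated the sides completely. ENSMUSG00000084098 had 4.67, 5.32 and 8.52 CPM in host-rich against 9.55, 14.3 and 21.9 CPM in host-poor tumours, a log2 fold change of -1.24 (SE 0.20, adjusted p = 0.0411). ENSMUSG00000022674 had 11.1, 18.2 and 22.3 CPM against 23.7, 36.5 and 46.9 CPM, a log2 fold change of -1.0004 (SE 0.18, adjusted p = 0.0411). No host-rich tumour reached the lowest host-poor tumour in either gene. With 1 tumour left out at a time, ENSMUSG00000084098 did not pass the test in 10 of 15 fits, and ENSMUSG00000022674 in 11. Some called genes of lower abundance had larger decreases, down to -2.21 on the log2 scale, with overlap between the sides for the largest. Of the 46 lower genes 26 did not overlap between the sides, and of the 3 higher genes 1 did not. Over all 13522 tested mouse genes, 65 (0.481%) lay wholly lower and 4 (0.0296%) wholly higher in host-rich tumours. The called genes were chosen on these same tumours and sides, so their separation follows in part from that choice. A difference of at least 1 on the log2 scale was reached by 2 of the 3 increased and 4 of the 46 decreased genes.

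Raw counts, which do not depend on the mouse total, were set beside these proportions. ENSMUSG00000022674 had 43, 78 and 91 raw counts in host-rich and 74, 83 and 157 in host-poor tumours, and ENSMUSG00000084098 had 19, 25.5 and 33 against 31, 41 and 50. Over the 46 lower genes the ratio of mean raw counts, host-rich to host-poor, had a median of 0.963 and ran from 0.350 to 1.20. Over all tested mouse genes the median was 1.61, near the ratio of 1.52 of the mouse totals. For the 3 higher genes the ratio was 2.64 to 4.67. That the lower genes have ratios under that of the totals follows from how they were called, since the divisor of their CPM is the mouse total that also chose the sides.

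**Figure D5:**
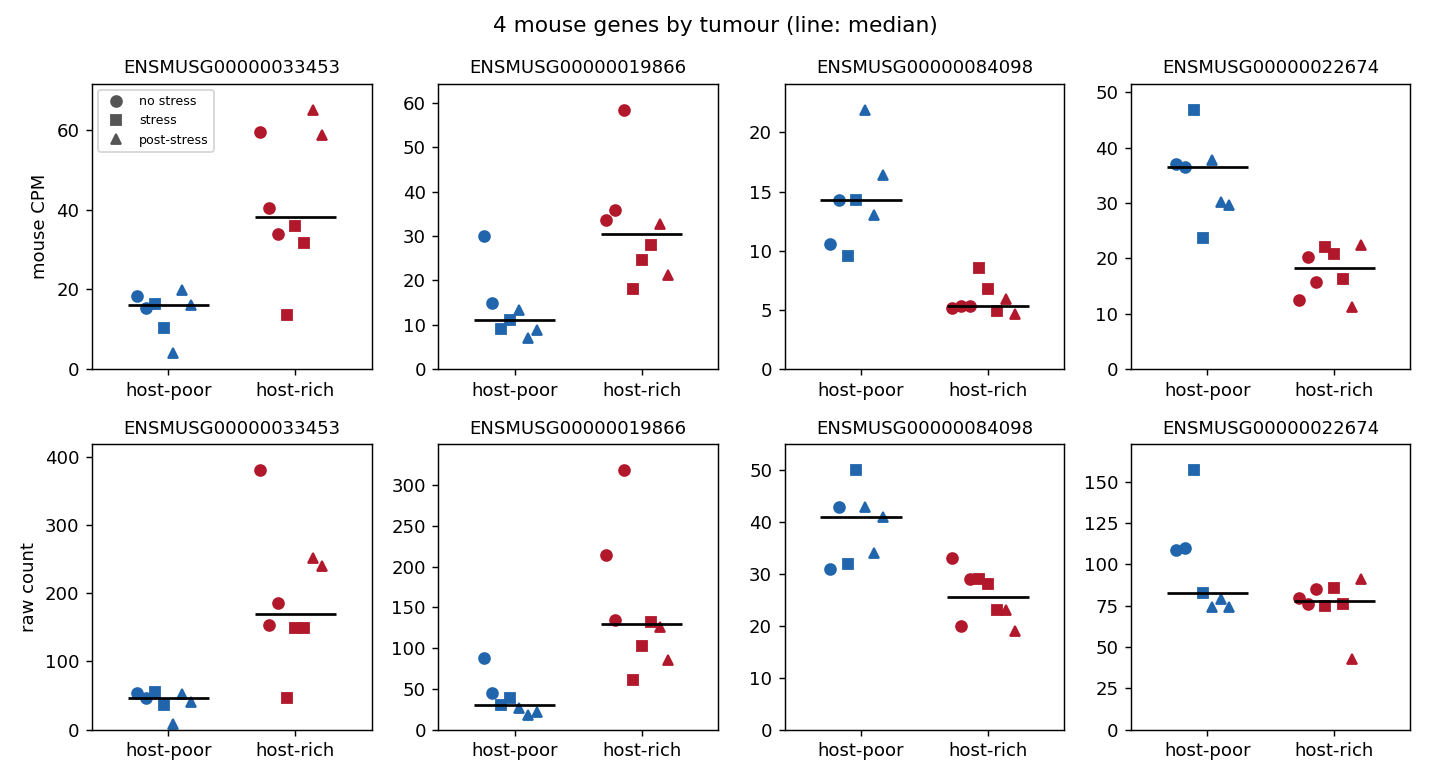
The 2 most increased and 2 most decreased called mouse genes with a mean log2 CPM of at least 3, by tumour, as CPM of mouse counts (top row) and as raw counts (bottom row), all axes from 0, with lines at the medians and shapes for the study groups. In the top row the 2 decreased genes do not overlap between the sides, whereas in the bottom row the raw counts of ENSMUSG00000022674 overlap, with medians of 78 and 83.

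The 46 lower mouse genes were steadier across tumours when set against human counts. That these genes vary more per mouse count over all tumours follows in part from how they were called. The same can hold within a side, where the mouse share still varied. All values of this paragraph are therefore a description. Divided by the human total, the counts of the 46 genes had a median coefficient of variation of 15.4% over the 15 tumours, and divided by the mouse total one of 29.4%. For 43 of the 46 genes (93.5%) the value per human count varied less than the value per mouse count, against 6.33% of all tested mouse genes. Within the host-rich tumours alone this held for 26 of 46 (56.5%, against 14.9% of all genes), and within the host-poor tumours for 31 of 46 (67.4%, against 18.4%). It held for 0 of the 3 higher genes over all tumours. Whether reads of human origin were counted on these mouse genes was not tested.

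Whether the difference between host-rich and host-poor tumours depended on the study group was tested as an interaction. It was called for 0 human genes (edgeR, smallest adjusted p = 0.0863, 1240 genes at an unadjusted p under 0.05) and for 0 mouse genes (smallest adjusted p = 0.344, 1433 genes at an unadjusted p under 0.05). The differences between groups given above for COL1A1, SPARC and CELF2 were therefore not shown by this test. It was made gene by gene, so that it did not address the medians of the lists.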

How the data were processed

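RNA of 15 tumours was measured, and groups and replicate numbers were taken from the titles. The deposited values are raw gene counts for 60649 human and 56941 mouse genes. Per the submitters' processing notes the authors used Trimmomatic 0.39, HISAT2 2.2.1 and featureCounts 2.0.6 with the builds hg38 and mm10. For the annotation, the strandedness and joint or separate alignment to the genomes the answer is not given in the sources used here, so that antisense genes, near-identical copies and reads of conserved sequence are uncertain. The members and gene lists were chosen with earlier results of these data known.

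Counts were split by species, filtered with filterByExpr by study group (15435 human genes with 99.8% and 13522 mouse genes with 99.4% of counts), scaled with TMM, and fitted with edgeR 4.0.16 (quasi-likelihood, robust, R 4.3.3, limma 3.58.1) with study group and side as terms. A gene was called at a Benjamini-Hochberg adjusted p under 0.05. Human symbols (60507 of 60649 matched) were looked up in the gene name reference and positions in GENCODE 29. No 2 libraries were identical. Genes named were the 5 of smallest p in each direction, up to 4 members of a list by smallest p, 14 fixed genes, and the 2 most increased and 2 most decreased called mouse genes with a mean log2 CPM of at least 3. The 5 of smallest p were taken among human genes with a symbol and a mean log2 CPM of at least 1. Some genes named by this rule are not reported here. Library values were compared by exact permutation of the side within study groups. Alternatives were DESeq2 1.42.0 (size factors, Wald test), limma-voom, other filters, splits at 18% and 22%, a continuous share, no TMM, no study group, single groups, a replicate block and leaving out tumours. The procedure was tested on simulated data. The unadjusted p of a gene and the gene lists carry no list test.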

Additional observations from a re-analysis of the deposited data

Results flagged for a closer look

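Within each study group of 5 tumours, a value was picked out where 1 tumour lay far from the other 4 by Dixon's test, which chance does in about 1 in 20 groups. The number of values screened is not given here, and some of those listed can be due to chance. Among library values, the 50 highest human genes took 19.1% of human counts in post-stress replicate 3 (15.9% to 16.7% in the others), and the 50 highest mouse genes took 14.4% of mouse counts in no-stress replicate 1 (16.3% to 16.8%). Genes not expected in A549 took 0.258% of human counts in stress replicate 5 (0.146% to 0.166%).

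Among the genes named, COL1A1 in stress replicate 5 had 144 CPM (93.8 to 98.5 in the other stress tumours), KRT14 in the same tumour 1054 CPM (311 to 431), and CCL2 in stress replicate 1 had 18.9 CPM (6.83 to 9.76). In post-stress replicate 4, ITGA2 had 67.9 CPM (28.5 to 38.9), EPB41L5 55.9 CPM (64.9 to 67.0) and BAX, an apoptosis gene, 77.9 CPM (70.6 to 72.4). In post-stress replicate 2, PDGFRB had 16.4 CPM (1.11 to 2.67) and CDH1 15.6 CPM (24.5 to 27.8), and in post-stress replicate 3 ZEB2 had 17.7 CPM (31.98 to 36.8). In the no-stress group KDM3A had 74.8 CPM (108 to 121) and CD74 3.44 CPM (1.116 to 1.55) in replicate 1, and RGS5 had 342 CPM (26.1 to 113) in replicate 4. The mouse gene ENSMUSG00000022674 had 46.9 CPM in stress replicate 2 (16.2 to 23.7), a host-poor tumour.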

How the results depend on the processing

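The count of 0 human genes became 362 with no filter, 5 with a continuous mouse share, 1 within the post-stress group (GTPBP6), and 0 to 1 when 1 tumour was left out (METRNL without post-stress replicate 1). It was 0 in the other fits. With no filter 35 list members were called, of which 33 were among the genes tested in the fit reported. In the fit reported 0 list members were called, and 0 when 1 tumour was left out. The fit with no filter gave a gene 385363 degrees of freedom instead of 16.7, so that the spread was taken as nearly known. The count of 49 mouse genes became 641 with DESeq2's Wald test, 123 with limma-voom, 143 with no filter, 240 without study group, 803 with a continuous share, 505 and 431 with splits at 18% and 22%, 27 without TMM, 6 with a log2 fold change of at least 1, 187 within the post-stress group, and 0 within the no-stress group, within the stress group and without no-stress replicates 1 and 5. It ran from 0 to 588 when 1 tumour was left out. With a replicate block it was 0. The correlation of same-numbered deviations ran from -0.19 to 0.12 for human genes, with 1 of 15 pairs over 0.1. For mouse genes it ran from -0.34 to 0.27, with 5 of 15 pairs over 0.1. Whether the replicate numbers pair the tumours was not tested. The cause of these changes in the counts of called genes was not tested either.

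The difference of the mitochondrial share became 0.0801 with a split at 18% and ran from -0.205 to 0.0847 percentage points without 1 tumour. That of the 50 highest human genes became -0.901 with a split at 18% (exact permutation p = 0.04) and ran from -0.992 to -0.537. That of the 50 highest mouse genes ran from -0.946 to -0.485. That of genes not expected in A549 became 0.102 with a split at 22% (exact permutation p = 0.006) and ran from 0.0418 to 0.0738.

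In 68 of 1674 values of single genes under alternatives the gene passed the test only in the fit reported, each time a named mouse gene. In 29 it passed only in the alternative. A further 53 values changed sign, all among genes whose sides did not pass the test. For DCN these were -0.43 with limma-voom, -0.0244 without study group, -0.11 with a continuous share, -0.0261 and -0.38 with splits at 18% and 22%, -0.19 with the replicate block, -0.032 without no-stress replicates 1 and 5 and -0.78 within the post-stress group. For VEGFA they were 0.0325 (continuous share), 0.0947 (split at 22%), 0.0013 (without TMM), 0.20 (within no stress) and 0.0264 (within stress). For VIM they were 0.0013 (split at 18%), 0.0074 (without TMM) and 0.0204 (within no stress). For CXCL8 they were 0.0387 (without study group), 0.54 (within no stress) and 0.14 (within stress), and for CCL2 -0.031 (split at 22%) and -0.17 (within post-stress). PECAM1 was 0.0769 within no stress. S100A8 was -0.147 without no-stress replicates 1 and 5 and -0.28 within post-stress. Within stress, PFKFB3 was 0.0201, MMP14 -0.11, ITGB3 -0.17, CA9 0.23, ISG15 -0.0846 and CDH1 -0.074. Within post-stress, SRXN1 was -0.00327 and BBC3 -0.017. Without 1 tumour, values ran from -0.0136 to 0.28 for CCL2, -0.018 to 0.14 for CDH1, -0.21 to 0.12 for CXCL8, -0.33 to 0.27 for DCN, -0.13 to 0.0461 for VEGFA and -0.0855 to 0.0177 for VIM.

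Mouse genes rest on 2119772 to 5937694 counts per tumour, fewer than the human genes.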
